A study of Mus musculus with 12 samples.

Results

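The genes described here are the MHC class II genes H2-Aa, H2-Ab1 and H2-Eb1, the peptide exchange genes H2-DMa and H2-DMb1, the invariant chain gene Cd74 and the class II transactivator gene Ciita. These 7 genes were named as a list by their function, and all 7 were found among the 41214 genes of the count tables. All 7 also passed the low-count filter and were among the 13822 genes tested. RNA was sequenced from leukaemic cells of 4 C57/BL6 mice, and the NUP98-HOXD13 transgene, which joins parts of a nuclear pore gene and a homeobox gene and gives myelodysplasia and leukaemia, is present in both groups. The groups were 2 mice labelled Gfi1 KI, heterozygous (KI/wt in the chromatin samples of the series), and 2 mice labelled Gfi1 KD, homozygous (KD/KD), called KI and KD here. The abbreviations are not spelled out in the labels, and the labels used here give no age, sex, sort or tissue for the cells. Gfi1 encodes a zinc finger transcriptional repressor that acts in blood cell differentiation. Both KD libraries lay below both KI libraries in mouse Gfi1 (36.2 and 89.0 CPM in KI against 7.22 and 1.12 CPM in KD). The comparison asks whether the class II pathway differs between leukaemias of the 2 Gfi1 genotypes.

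MHC class II molecules are pairs of an alpha and a beta chain that carry peptides from the endosome to the surface of dendritic cells, B cells, macrophages and some monocytes, where CD4 T cells read them. The invariant chain encoded by Cd74 escorts new pairs from the endoplasmic reticulum and fills their groove. The H2-DM pair removes its last fragment in the endosome so that other peptides can bind. CIITA binds no DNA itself. It sits on a complex of RFX, CREB and NF-Y proteins assembled on the X and Y boxes of class II promoters, and its presence sets whether these genes are transcribed. C57/BL6 mice make the I-A pair (H2-Aa with H2-Ab1), but not the I-E pair, since their alpha gene H2-Ea is defective, although the I-E beta gene H2-Eb1 is transcribed.

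The X and Y boxes are shown here because the classical genes and Ciita turned out to share a library profile. Promoter entries of RefSeq (GRCm38.p6) were read for 4 of the 7 genes, namely H2-Aa, H2-Eb1, H2-DMb1 and H2-DMa. No entry was found for H2-Ab1 or Ciita. Cd74 was left out of the promoter reading, so nothing is said here of its boxes. The 150 bases before the annotated start are printed 5′ to 3′ on the gene's strand for the 3 genes in which an X-type motif was followed by a Y box, at chr17:34287824-34287973 (minus strand) for H2-Aa, chr17:34305717-34305866 (plus strand) for H2-Eb1 and chr17:34153041-34153190 (plus strand) for H2-DMb1. Capitals mark the Y box core ATTGG, an X box core written AACNNNTGA and the palindrome TGACGTCA of CREB-type sites, each on either strand.
H2-Aa: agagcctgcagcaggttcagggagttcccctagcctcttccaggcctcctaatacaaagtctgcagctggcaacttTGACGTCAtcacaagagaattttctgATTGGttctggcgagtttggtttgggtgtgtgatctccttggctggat
H2-Eb1: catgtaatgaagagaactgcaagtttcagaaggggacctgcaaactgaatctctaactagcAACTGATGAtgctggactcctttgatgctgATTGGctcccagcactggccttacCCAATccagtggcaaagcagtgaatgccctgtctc
H2-DMb1: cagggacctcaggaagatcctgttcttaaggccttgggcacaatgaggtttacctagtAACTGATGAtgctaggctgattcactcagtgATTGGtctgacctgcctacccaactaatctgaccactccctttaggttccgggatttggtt

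In H2-Eb1 the X box core began 89 bases and the Y box 59 bases before the start, with 21 bases between them. In H2-DMb1 they began 92 and 61 bases before the start, with 22 bases between. H2-Aa lacked these letters of the X box core but held the palindrome 74 bases before the start, with 18 bases between it and the Y box at 48. Neither of the 2 entries for H2-DMa held the X box core or the palindrome. Their 150 bases (chr17:34122682-34122831 and chr17:34125368-34125517, plus strand) lie inside the RefSeq span of the gene, and the first overlaps the end of Brd2. Other starts of H2-DMa were not read, so these entries do not show whether the gene has an X box elsewhere. The motif letters were chosen after these promoters were read, and a match is a description of the letters alone. H2-DMb1 held the pair of boxes but did not share the library profile of H2-Aa and H2-Eb1, as described below. A link between the boxes and the profile was not tested. Over 250 bases upstream, either strand, the Y box core was present in 33.9% of 32851 promoter entries, the X box core in 10.1% and the palindrome in 1.55%. An X box core or palindrome followed within 40 bases by a Y box on the same strand was present in 0.560% of them.

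The table of counts gave the depth behind every level. The KI libraries held 4581593 (replicate 1) and 10869534 (replicate 2) reads in genes, and the KD libraries 11934542 and 10263454. CPM, the unit of levels here, are counts scaled to the library total with TMM factors, and 3 counts equal between 0.212 and 0.696 CPM. KI replicate 1, the shallowest library, also had the highest summed level of 1509 odorant, pheromone and taste receptor genes, taken as mostly silent in blood cells. The sum was 906.6 CPM against 135.8 to 220.9 CPM in the other libraries, or a mean of 0.601 CPM per receptor gene. The set was not silent throughout, since 7 of its genes passed the low-count filter and the highest had 47.8 CPM in KI replicate 1. The share of uniquely aligned reads that fell in no gene was 88.3% in KI replicate 1 and 63.2% to 68.3% in the others. The part of these features in the class II levels of this mouse was not tested, so results are also given without it. The kit marks strand, but the strand setting used in counting is not given in the sources used here, and counts made against the opposite strand would be of antisense reads.

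Ciita had 18.3 and 0.712 CPM in the KI mice (replicates 1 and 2, an order kept throughout) and 7.85 and 2.16 CPM in the KD mice, on 79, 6, 111 and 25 counts. Its level was thus highest and lowest in the 2 KI mice, with both KD mice between them. The gene (ENSMUSG00000022504) lies on GRCm38 chromosome 16, 10480014 to 10531064. RefSeq places Dexi, another protein-coding gene, and a long noncoding RNA over part of this span, and reads of these neighbours cannot be told apart with certainty. The fitted log2 fold change of KD over KI was -0.89 ± 1.38 (SE), and edgeR's quasi-likelihood test gave an adjusted p of 0.954. Leaving out KI replicate 1 gave 2.97, and limma-voom gave 0.76, so the sign rested on that library and on the method.

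H2-Aa (ENSMUSG00000036594), the alpha chain of I-A, had 117.4 and 4.03 CPM in KI and 24.8 and 7.69 CPM in KD (506, 34, 351 and 89 counts). H2-Ab1 (ENSMUSG00000073421), its beta chain, had 109.0 and 6.9997 CPM in KI against 20.5 and 7.69 CPM in KD (470, 59, 290 and 89 counts). H2-Eb1 (ENSMUSG00000060586), the I-E beta chain, had 100.4 and 4.15 CPM in KI against 17.8 and 7.69 CPM in KD (433, 35, 251 and 89 counts). In each of these genes KI replicate 1 was the highest library and KI replicate 2 the lowest, and the genotypes overlapped.

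Cd74, the invariant chain, followed the same order at 233.3 and 9.61 CPM in KI and 52.6 and 21.9 CPM in KD, on 1006, 81, 744 and 253 counts. Its mean was 121.5 ± 158.2 CPM in KI and 37.3 ± 21.8 CPM in KD (SD, n = 2 mice each). The spread within KI was therefore larger than the difference between genotypes. The gene (ENSMUSG00000024610) lies on GRCm38 chromosome 18, 60803849 to 60812652.

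The fitted log2 fold changes were -1.89 ± 1.39 (SE) for H2-Aa, -2.03 ± 1.21 for H2-Ab1, -2.02 ± 1.31 for H2-Eb1 and -1.70 ± 1.30 for Cd74. Their adjusted p-values, from the same edgeR fit, were 0.773, 0.674, 0.707 and 0.788. Without KI replicate 1 the values turned to 2.18, 1.18, 1.78 and 2.12, with adjusted p between 0.158 and 0.450. Without KI replicate 2 they were -2.72, -2.82, -2.85 and -2.52, with adjusted p between 0.00793 and 0.0101 in edgeR, a fit in which KI is a lone mouse assumed to vary as the KD mice do. That fit called 23% of all its genes lower. With limma-voom, which averages on the log scale, they lay between -0.79 and -0.14. The direction of the classical genes therefore depended on which KI mouse was kept.

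**Figure D1:**
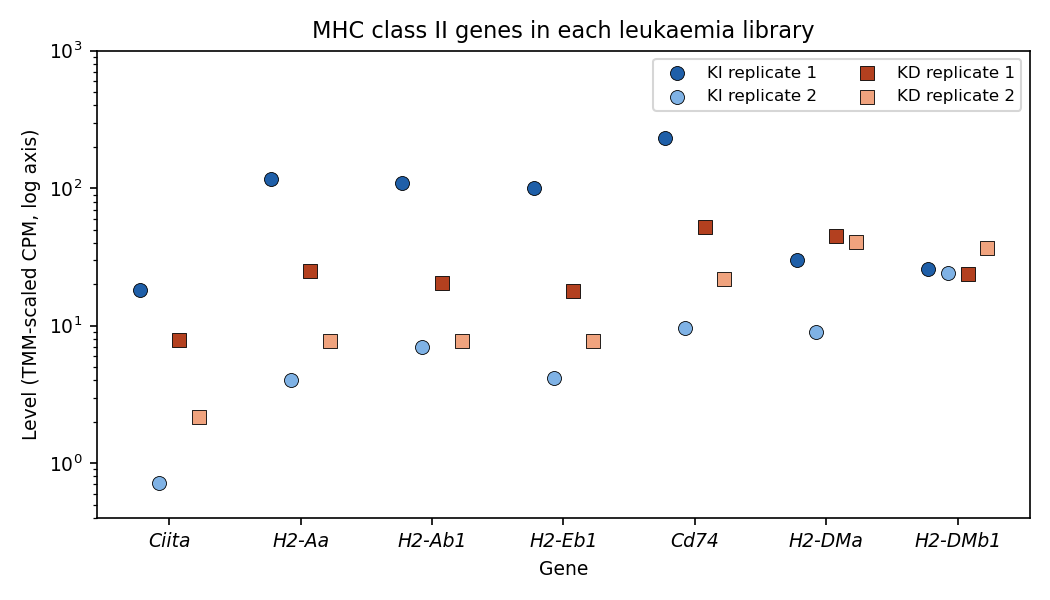
Level of each gene in CPM (log axis) in the 4 libraries, 1 point per mouse, with circles for KI and squares for KD. From Ciita to Cd74 the KI circles are the highest and the lowest points of each gene with the KD squares between them, whereas for H2-DMa both KD squares lie above both KI circles. Levels are not corrected for gene length, so only points within a gene are compared.

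The difference between the 2 KI mice was large next to that of other genes. KI replicate 1 exceeded KI replicate 2 by 29.1-fold for H2-Aa (95% exact binomial interval 20.5 to 42.5), 15.6-fold for H2-Ab1 (11.9 to 20.8), 24.2-fold for H2-Eb1 (17.1 to 35.2), 24.3-fold for Cd74 (19.3 to 30.8) and 25.7-fold for Ciita (11.3 to 72.3). These intervals cover counting error only. A ratio of at least 8 in this direction was seen for these 5 of the 7 genes and for 4.35% of all genes tested, a comparison made after the values were seen. The absolute log2 difference between the KI mice had a median of 0.69 over all genes tested, and between 0.318% and 0.781% of tested genes differed by as much as these 5 or more. KD replicate 1 exceeded KD replicate 2 by 3.23-fold (2.55 to 4.12) for H2-Aa, 2.41-fold (2.09 to 2.79) for Cd74 and 3.64-fold (2.34 to 5.86) for Ciita. H2-Ab1 and H2-Eb1 differed between the KD mice by 2.67-fold and 2.31-fold.

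The proportions of these 5 genes to each other varied less between libraries than their levels. The count of H2-Aa per count of H2-Ab1 was 1.08 and 0.576 in KI and 1.21 and 1.00 in KD. Cd74 per H2-Aa was 1.99 and 2.38 in KI and 2.12 and 2.84 in KD, a 1.43-fold range over libraries in which each gene's own level ranged more than 20-fold. Ciita per Cd74 was 0.0785 and 0.0741 in KI and 0.149 and 0.0988 in KD, so both KD libraries lay above both KI libraries in this ratio, which rests on 6 Ciita counts in KI replicate 2.

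The likeness of library profiles was measured as the root mean square difference from Cd74, over the 4 libraries, of log2 CPM centred on each gene's mean. H2-Eb1 lay at 0.168 and H2-Aa at 0.182, and none of 9592 other named genes with a mean of at least 5 CPM lay closer to Cd74 than either of them. Ciita lay at 0.339, with 4 other genes closer, and H2-Ab1 at 0.398, with 5 closer. The 5 closest genes outside the list were Ifi27l2a (0.222), an interferon-inducible gene, Slc40a1 (0.235), the iron exporter ferroportin, Slfn5 (0.285), a Schlafen gene, Dhrs9 (0.305), a short-chain dehydrogenase, and Slc30a4 (0.369), a zinc transporter. Slfn5, for instance, had 151.2 and 9.73 CPM in KI and 43.6 and 23.5 CPM in KD. The order KI replicate 1, KD replicate 1, KD replicate 2, KI replicate 2 was shared by 5 of the 7 genes and by 5.42% of all genes tested. In the wider arrangement with KI replicate 1 highest, KI replicate 2 lowest and the KD order free, the same 5 genes stood beside 8.93% of all genes tested. With 4 libraries this is a description of likeness in these mice.

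**Figure D2:**
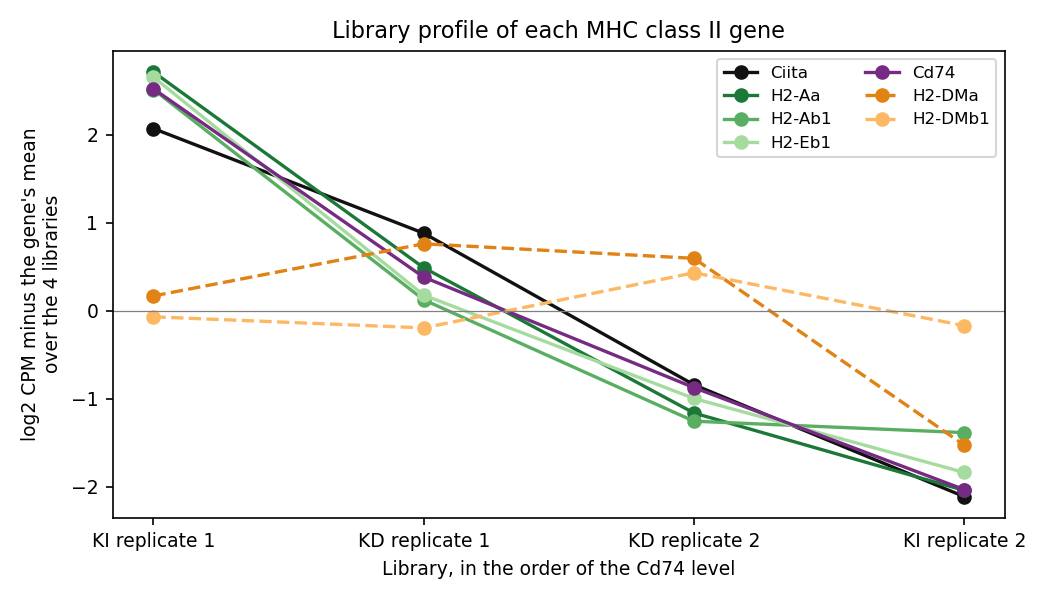
Centred log2 CPM of each gene (vertical axis, log2 units) in the 4 libraries, ordered by the Cd74 level, with solid lines for Ciita, the classical genes and Cd74 and dashed lines for the H2-DM genes. The 5 solid lines fall together from KI replicate 1 to KI replicate 2, and the dashed lines do not follow them.

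H2-DMa and H2-DMb1, which encode the chains of the peptide exchange factor, did not share this profile. H2-DMa had 29.9 and 9.02 CPM in KI and 45.3 and 40.3 CPM in KD, on 129, 76, 640 and 467 counts. Both KD libraries lay above both KI libraries, which held for 14.5% of all genes tested. The reverse arrangement, held by none of the 7 genes, was seen in 23.5% of genes. Its log2 fold change was 1.15 ± 0.59 (SE), with an adjusted p of 0.591 in edgeR. Among the 7 genes it alone kept its sign in all 13 alternative analyses, from 0.62 with KI replicate 2 left out to 2.39 with KI replicate 1 left out. In the latter fit H2-DMa was called higher (edgeR adjusted p = 0.0274), with KI a lone mouse, as were 1.29% of all genes in that fit. H2-DMa (ENSMUSG00000037649) lies on GRCm38 chromosome 17, 34119693 to 34139101 in RefSeq, a span that overlaps the end of Brd2.

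H2-DMb1 had 26.0 and 24.2 CPM in KI and 23.8 and 36.9 CPM in KD, on 112, 204, 336 and 427 counts. Its levels in the KI mice differed by 1.07-fold (0.845 to 1.36), the smallest such difference of the 7 genes, and 91.8% of all genes tested differed more between these mice. The log2 fold change was 0.27 ± 0.35 (SE), with adjusted p = 0.932 in edgeR, and it was -0.0046 without KD replicate 2. The gene (ENSMUSG00000079547) lies on GRCm38 chromosome 17, 34153191 to 34160229. H2-DMb1 and its neighbour H2-DMb2 are close copies, and reads that align to more than one place went to neither, so the single values of both are uncertain. H2-DMb2 had 7.42 and 2.73 CPM in KI and 5.73 and 5.27 CPM in KD.

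The balance of H2-DM to classical class II RNA thus varied from mouse to mouse. There were 0.274 and 1.29 counts of H2-DMa per count of H2-Ab1 in KI and 2.21 and 5.25 in KD, so that both KD libraries lay above both KI libraries in this ratio. H2-DMb1 per H2-Ab1 was 0.238 and 3.46 in KI and 1.16 and 4.80 in KD, where the genotypes overlapped. Whether H2-DMa and the classical genes differ in their response to genotype was not tested.

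Over the 7 genes, 2 fold changes were above 0 and 5 below, and their median was -1.70. Over all 13822 genes the median was -0.064 and 44.5% were positive. In edgeR's quasi-likelihood test at adjusted p = 0.05, 0 of the 7 genes were called in either direction, as were 0 of all genes tested (0% higher and 0% lower in KD). At an unadjusted p of 0.05, 0 of the 7 genes passed, where 1.29% of all genes tested were higher and 8.34% lower in KD. DESeq2, which called 5 genes higher and 139 lower over all genes, called none of the 7, and limma-voom called 0 genes. The median of the 7 turned to 2.12 without KI replicate 1, and it was -0.14 with limma-voom.

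**Figure D3:**
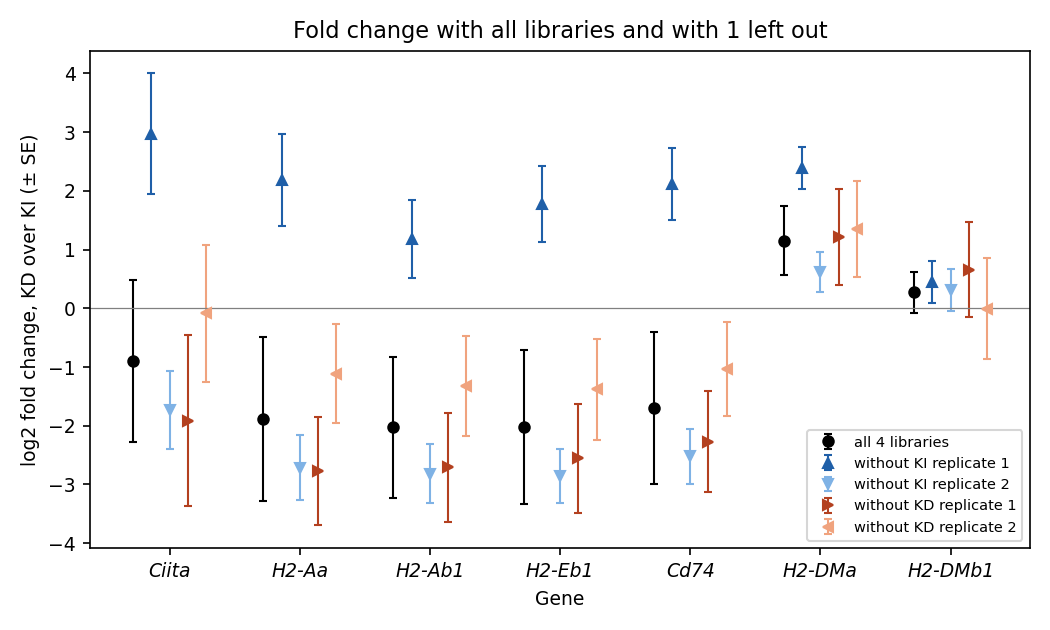
Log2 fold change of KD over KI with its standard error for each gene, from edgeR with all 4 libraries (black) and with 1 library left out (coloured), where the lone mouse of its genotype is assumed to vary as the others do. The values without KI replicate 1 lie above 0 for all 7 genes, whereas with all 4 libraries only H2-DMa and H2-DMb1 lie above 0.

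Along chromosome 17 the class II genes sit among class I processing genes, which gave a comparison within one region. RefSeq lists 14 protein-coding genes from H2-Oa to H2-Eb2 (GRCm38.p6, 34092379 to 34341410), of which all but H2-Eb2 were tested. The block H2-Ab1 (34263227 to 34269418), H2-Aa (34282744 to 34287823) and H2-Eb1 (34305867 to 34316674), with its neighbour H2-Ob, had the widest ranges over libraries, between 14.9-fold and 29.1-fold. H2-Ob, the beta chain of the H2-O inhibitor of H2-DM, had 14.1 and 0.949 CPM in KI and 5.45 and 5.10 CPM in KD. Directly beside them, the proteasome subunit genes Psmb9 and Psmb8 and the peptide transporter genes Tap1 and Tap2 ranged between 1.37-fold and 1.94-fold. Brd2, a bromodomain gene between H2-Oa and H2-DMa, ranged 1.39-fold. H2-Oa, the alpha chain of H2-O, was low in all libraries, from 1.31 to 3.11 CPM.

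**Figure D4:**
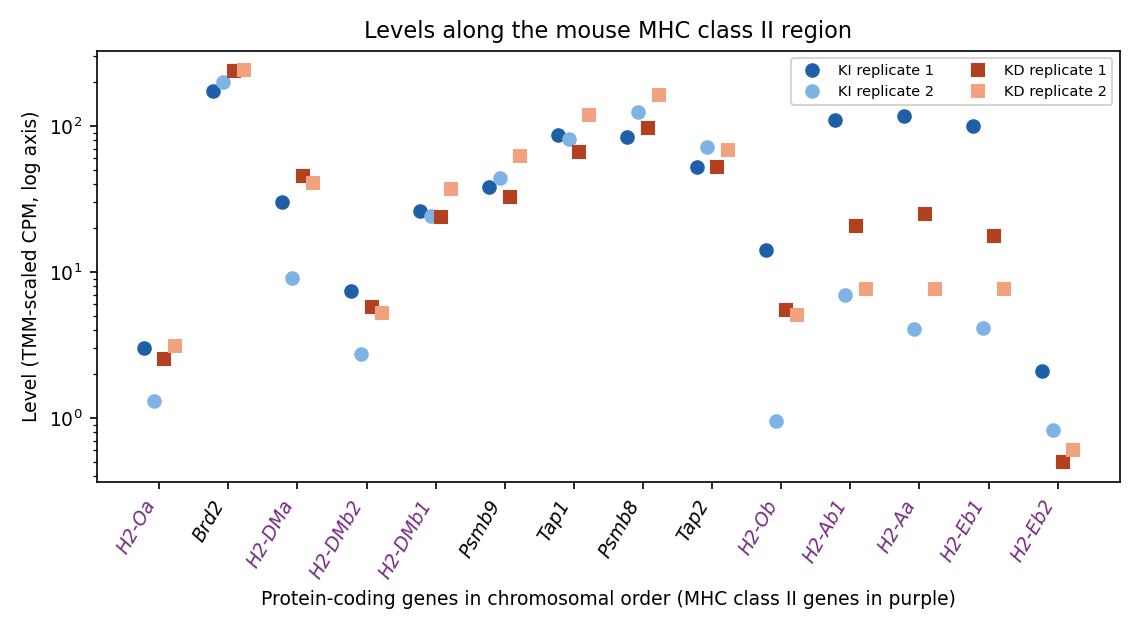
Level in CPM (log axis) of the 14 protein-coding genes of the class II region in chromosomal order, with 1 point per library and class II genes named in purple. The libraries spread widely at H2-Ob, H2-Ab1, H2-Aa and H2-Eb1 and stay close together from Psmb9 to Tap2.

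The other genes of class II loading mostly had fold changes above 0, without passing the test, and in most of those tested the genotypes overlapped. Of 19 listed names, 16 were in the tables. The others were second names of March1, March8 and H2-Ea-ps, so no listed gene was missing. Tested were 14 genes, 10 of them above 0 and 4 below on the log2 scale (median 0.34, 0 called). Over all genes tested 44.5% were above 0. Ifi30, the thiol reductase that unfolds antigens in the endosome, had 132.7 and 38.8 CPM in KI and 189.8 and 294.0 CPM in KD (log2 1.501 ± 0.62, SE). Ctsb, the protease cathepsin B, had 362.3 and 314.6 CPM in KI and 608.0 and 520.9 CPM in KD (0.74 ± 0.31). Both KD libraries lay above both KI libraries in these genes. This held for 3 of the 14 tested genes and for 14.5% of all genes tested. The reverse held for 2 of the 14 and for 23.5% of all genes tested. March8, a ubiquitin ligase of surface proteins, was lower in both KD libraries, at 34.3 and 43.8 CPM in KI against 15.1 and 23.4 CPM in KD (-1.02 ± 0.37). Cathepsin S (Ctss), which trims the invariant chain, had 321.0 and 92.5 CPM in KI and 486.3 and 296.3 CPM in KD, with overlapping genotypes. H2-Ea-ps, the defective I-E alpha gene, had at most 3 counts in any library.

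Among the factors that act above the class II genes, none was called. Of 23 listed regulators, Ciita included, all were tested, with 16 log2 fold changes above 0 and 7 below (median 0.12, 0 called). The RFX subunit genes Rfx5, Rfxap and Rfxank lay between 7.92 and 24.2 CPM in every library, with log2 fold changes of 0.19 ± 0.33, -0.42 ± 0.45 and 0.00 ± 0.40 (SE). Irf8, a factor of monocytes and dendritic cells, had the lowest p of the list, with 236.6 and 283.7 CPM in KI and 394.3 and 555.7 CPM in KD (0.87 ± 0.33, edgeR adjusted p = 0.518). Usf1 and Nfya had 0.64 ± 0.27 and 0.64 ± 0.34, with KD above KI in all libraries. Irf1, an interferon-inducible factor, shared the library order of Cd74 at 63.8 and 25.2 CPM in KI and 54.4 and 45.5 CPM in KD. Irf4 did so at lower levels, 8.81 and 0.830 CPM in KI and 3.89 and 3.20 CPM in KD. In all, 5 of these 23 genes, Ciita among them, had that order.

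MHC class I presentation genes did not show the profile of the class II genes. Their summed level was 2747 and 2740 CPM in KI and 2770 and 4006 CPM in KD, a 1.46-fold range, whereas the sum over the 7 class II genes was 634.3 and 58.7 CPM in KI and 192.7 and 124.3 CPM in KD, a 10.8-fold range. Of 19 class I genes tested 15 log2 fold changes were above 0 and 4 below (median 0.21, 0 called), and 1 gene, H2-T23, had KI replicate 1 highest and KI replicate 2 lowest. Pdia3, a disulfide isomerase of the loading complex, had 0.88 ± 0.31 (SE) and Erap1, a peptide-trimming protease, 0.57 ± 0.27. Of 11 costimulation genes 7 were tested, 4 above 0 and 3 below (median 0.43, 0 called). Cd86, a ligand of CD28, had 6.73 and 1.31 CPM in KI and 15.7 and 7.17 CPM in KD (1.56 ± 0.89). Of the 7 tested, 1 gene, Cd40, had KI replicate 1 highest and KI replicate 2 lowest. Its levels were 6.26 and 0.356 CPM in KI and 1.20 and 2.85 CPM in KD, on 27, 3, 17 and 33 counts.

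Class II genes are also expressed by cells other than leukaemic blasts, and in bulk RNA fewer cells of a type and less RNA per cell cannot be told apart. The dendritic cell list summed to 295.0 and 166.7 CPM in KI and 189.4 and 157.4 CPM in KD. Tcf4 made up the largest share of both KD sums (111.0 and 82.4 CPM). The list had 16 of 16 genes in the tables, none at 0, and 9 tested. Of these 1, Tcf4, lay above 0 and 8 below (median -1.59, 0 called). In 3 of the 9 both KD libraries lay below both KI libraries, against 23.5% of all genes tested. In 1, Tcf4, both lay above, against 14.5%. All of its genes but Flt3 and Tcf4 were highest in KI replicate 1, though 5 of the 16 stayed below 5 CPM in every library. Cd209a, a lectin of monocyte-derived dendritic cells, chosen after its values were seen, had 37.8 and 0.119 CPM in KI and 2.48 and 1.04 CPM in KD, on 163, 1, 35 and 12 counts. Siglech, of plasmacytoid cells, had 7.42 and 0.356 CPM in KI and 0.708 and 0.691 CPM in KD, and Itgax, which encodes CD11c, 14.6 and 2.02 CPM against 4.53 and 0.864. Both were likewise chosen after their values were seen. KI replicate 1 was highest and KI replicate 2 lowest in 6 of the 16 genes. Among the 9 tested these were 2, Cd209a and Clec10a, beside 8.93% of all genes tested. Siglech rested on 32, 3, 10 and 8 counts and was not tested. Zbtb46, a factor of classical dendritic cells, had 14.6 and 4.15 CPM in KI and 1.34 and 1.30 CPM in KD (-2.80 ± 0.82), and Ly75, an endocytic receptor, 60.5 and 45.8 CPM against 14.6 and 8.29 CPM (-2.21 ± 0.41). Tcf4, a factor of plasmacytoid cells and the other gene of the list with the lowest p, lay higher in both KD libraries, at 70.0 and 43.5 CPM in KI and 111.0 and 82.4 CPM in KD (0.77 ± 0.35). The part of such cells in the class II levels was not tested.

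B cell genes gave 146.8 and 138.6 CPM in KI and 125.5 and 230.8 CPM in KD as a sum over 19 genes, of which Ighm, the IgM heavy chain, made up the largest share (59.6 and 82.5 CPM in KI and 97.0 and 151.1 CPM in KD). The order of this sum was not that of the class II genes, but 2 of the 9 tested genes had KI replicate 1 highest and KI replicate 2 lowest. These were Ebf1, a B lineage factor, at 14.4 and 0.949 CPM in KI and 1.49 and 1.56 CPM in KD, and Cd22, an inhibitory receptor of B cells, at 12.99 and 1.31 CPM in KI and 3.47 and 3.71 CPM in KD. The log2 fold change of Ebf1 was -2.30 ± 1.25 (SE) and turned to 0.81 without KI replicate 1. The defining B cell gene Pax5 was at 0 in KD replicate 2 and had at most 7 counts in any library, and Fcmr was at 0 in KI replicate 1. Of the 9 B cell genes tested 2 lay above 0 and 7 below on the log2 scale (median -0.96, 0 called). Macrophage genes summed to 149.8 and 78.2 CPM in KI and 165.6 and 135.8 CPM in KD over 14 genes, of which Vsig4, Timd4 and Marco were at 0 in some libraries. Adgre1 made up the largest share of this sum in every library (99.0 and 36.2 CPM in KI and 148.1 and 110.8 CPM in KD). Of 10 tested 1 lay above 0, Adgre1 itself, and 9 below (median -1.30, 0 called). In 4 of these 10 both KD libraries lay below both KI libraries, against 23.5% of all genes tested. In 1, Adgre1, both lay above, against 14.5%. T cell genes summed to 148.0 and 86.5 CPM in KI and 26.2 and 39.8 CPM in KD, with 1 of 16 tested genes above 0 and 15 below (median -1.73, 0 called). Among the tested T cell genes, 3 of 16 had KI replicate 1 highest and KI replicate 2 lowest, namely Thy1, Lck and Cd28. Lck, a kinase of the T cell receptor, had 17.9 and 1.90 CPM in KI and 2.76 and 3.71 CPM in KD. It was chosen after its values were seen. Cd3e, Themis and Cd6, the genes of the list with the lowest p, had both KD libraries below both KI libraries. This held for 8 of the 16 tested T cell genes and 23.5% of all genes tested. Cd3e (6.26 and 37.3 CPM in KI, 1.34 and 0.518 CPM in KD) and Cd6 were highest in KI replicate 2, Themis in KI replicate 1. At an unadjusted p of 0.05 in edgeR, 6 were lower, against 8.34% of all genes. None of the 10 tested macrophage genes had KI replicate 1 highest and KI replicate 2 lowest. The part of B cells and T cells in the class II levels was not tested.

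Monocyte genes were abundant in every library, with sums of 9359 and 4828 CPM in KI and 10906 and 9265 CPM in KD over 15 genes. All 15 were tested, 14 above 0 and 1 below (median 0.89, 0 called). KI replicate 2, the library lowest in class II genes, was also the lowest in this sum. Ccr2, the chemokine receptor of classical monocytes, had 650.1 and 75.5 CPM in KI and 653.6 and 349.8 CPM in KD, and Cx3cr1, a receptor of patrolling monocytes, 88.6 and 2.37 against 122.8 and 45.4, both chosen after their values were seen. Both were lowest in KI replicate 2, as were Ciita and Cd74, but KD replicate 1 was their highest library, not KI replicate 1. Other members differed, among them Ly6c2, a surface marker of classical monocytes, which was lowest in KI replicate 1 (324.5 and 743.5 CPM in KI and 488.6 and 881.5 CPM in KD). Nr4a1, a factor of patrolling monocytes, was lowest in KD replicate 2 (21.3 and 7.71 CPM in KI and 50.1 and 5.87 CPM in KD). Of the 15 genes 3 had KI replicate 1 highest and KI replicate 2 lowest, Lyz2, Itgam and Ms4a6b. Ctss stands in this list as well as in that of class II loading. Klf4 and Cd14, the members of the list with the lowest p, had 1.18 ± 0.29 and 1.46 ± 0.36 (SE). Cd14, a coreceptor for lipopolysaccharide, was also lowest in KI replicate 1, at 8.35 and 11.2 CPM in KI and 26.3 and 27.6 CPM in KD. The part of monocyte content in the class II levels was not tested.

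**Figure D5:**
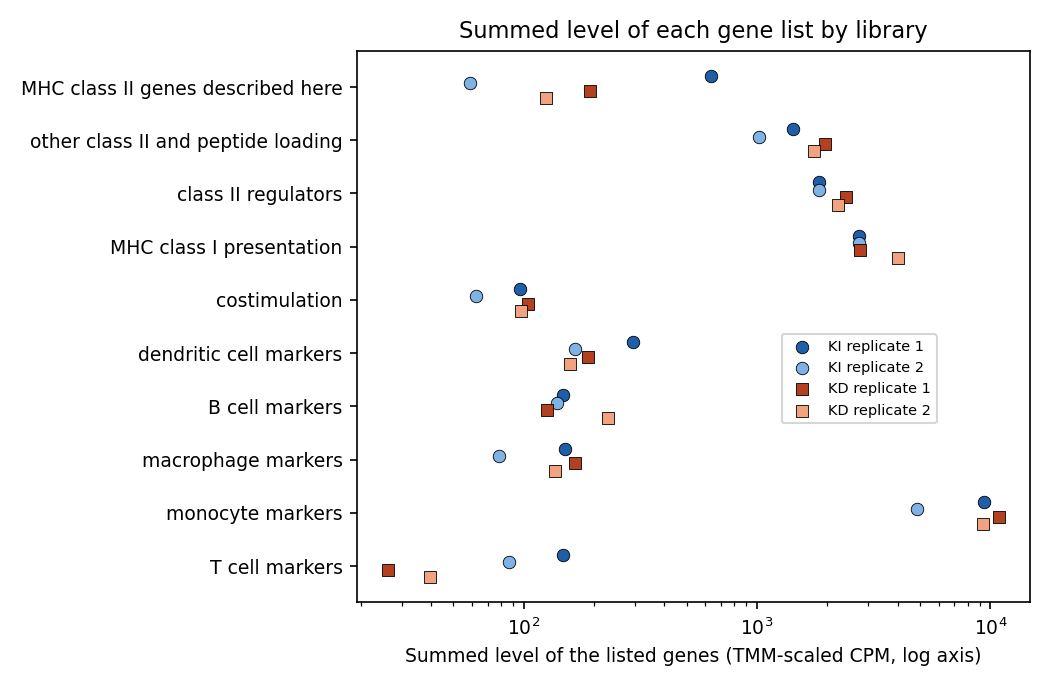
Summed level in CPM (log axis) of the genes of each list in the 4 libraries, 1 point per mouse, with circles for KI and squares for KD. The class II genes spread from 58.7 to 634.3 CPM, with both KD libraries between the KI libraries, and the class I list stays between 2740 and 4006 CPM.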

How the data were processed

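RNA was measured in 4 libraries from TruSeq Stranded mRNA kits. The authors deposited raw counts per Ensembl gene, made with TopHat2 2.0.10, SAMtools and HTSeq on GRCm38, per the submitters' processing notes. The sources used here name no strand setting and no annotation release. Summary entries that name no gene held 93.2% to 97.9% of each total and were left out. Symbols were found for 40254 of 41214 genes. The 8 chromatin libraries were not analysed here, because the 1616 per-sample columns of their tables name neither antibody nor mouse.

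Counts were filtered with filterByExpr, scaled by TMM and tested with the quasi-likelihood test of edgeR 4.0.16 (R 4.3.3), on a model of genotype alone, with p-values adjusted by Benjamini-Hochberg over 13822 genes. Log2 CPM for profiles used a prior count of 3. P-values weigh the difference between genotypes against the spread within genotype, which is estimated partly from all genes tested. They rest on these 4 mice alone, 2 per genotype. Alternatives were other scalings and filters, DESeq2 1.42.0, limma-voom (limma 3.58.1), a replicate block and leaving out each library.

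The genes and lists were chosen with earlier results of these data known. Named were the 7 genes, the 3 genes of each list with the lowest p and the 5 genes nearest to Cd74. Not all of these are printed. Some genes of the lists are not reported here by name.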

Additional observations from a re-analysis of the deposited data

How the results depend on the processing

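Outside the fits that leave out a library, the 7 genes and their median kept their direction, and none was called, under 9 alternatives, except Ciita, which lay at 0.76 with limma-voom. The median of the 7 moved from -1.70 to -0.14 with limma-voom and to -0.56 with the replicate block. Over all genes, 29 were called higher and 140 lower with no low-count filter, and 5 higher and 139 lower with DESeq2. With the replicate number as a block 7 were called lower and 0 higher. The labels do not say that this number pairs the mice, and the correlation over genes of the differences between replicates was 0.249 between the genotypes. Under the block H2-DMa lay at 1.36, H2-Aa at -0.82, Cd74 at -0.56 and Ciita at -0.02, none called. The median over all genes moved from -0.064 to 0.37 with library size only, to 0.10 without genes over 1% of any library, to -0.76 with no filter and to -0.30 without KD replicate 2.

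With 1 library left out, calls over all genes ranged from 2 to 284 higher and from 9 to 3846 lower. The number of genes tested also changed. The median of the 7 genes ranged from -2.52 to 2.12, H2-Aa from -2.77 to 2.18, H2-Ab1 from -2.82 to 1.18, H2-Eb1 from -2.85 to 1.78, Cd74 from -2.52 to 2.12, Ciita from -1.91 to 2.97, H2-DMa from 0.62 to 2.39 and H2-DMb1 from -0.0046 to 0.66. The positive ends of the first 6 ranges came without KI replicate 1. Without KI replicate 2, H2-Aa, H2-Ab1, H2-Eb1 and Cd74 were called lower, in a fit that called 3846 of 16755 genes lower. Without KI replicate 1, H2-DMa was called higher, as were 183 of 14164 genes. The 6 counts of Ciita in KI replicate 2 limit its ratios.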
